A study of Mus musculus with 9 samples.

Results

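The chemokine ligands and receptors are the genes whose symbols begin with Ccl, Ccr, Cxcl or Cxcr and a digit, or with Cx3c, leaving out Cxcl1. On the mouse array used, 63 of 22626 probe sets were annotated to exactly 1 such gene. Together they covered 46 of the 12393 genes measured by a probe set of their own. Of these, 40 probe sets measured 30 ligands and 23 measured 16 receptors. Liver RNA was hybridised to 9 arrays in 3 groups of 3. NT-Co were mice without a tumour that received vehicle. T-Co were mice with the human colon cancer TK-4 in the wall of the cecum that received vehicle. T-TSU were mice with the same tumour that received TSU68, an oral inhibitor of the VEGF, PDGF and FGF receptor tyrosine kinases, at 400 mg/kg/day. Mice with a tumour were BALB/c nu/nu males, athymic and so without most T cells, and 6 weeks old, and dosing ran for 1 week from day 7 after implantation. Strain, sex and age are not given separately for NT-Co, and no sham operation is described, so tumour and surgery cannot be told apart. The tumour sat in the cecum and the RNA came from whole liver.

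Chemokines are small secreted proteins that bind G protein-coupled receptors on leukocytes and set where those cells go. Most inflammatory ligands bind several receptors, while homeostatic ones such as Cxcl12 act mainly through a single receptor. In liver they are made by Kupffer cells, endothelium, stellate cells and hepatocytes, and the receptors sit mostly on the leukocytes that pass through the sinusoids. In whole tissue, fewer cells of a type and less RNA per cell cannot be told apart.

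Ccl6, Cxcl12, Cxcl13 and Ccl9 are the ligands whose values the results turn on, and the 250 bases before their starts are shown so that the upstream sequences can be read beside those values. The sequences are RefSeq's, build GRCm38.p6, written 5′ to 3′ along the gene's strand, with motif matches in capitals. They lie at chr11:83593088-83593337 (minus strand) for Ccl6, chr11:83578637-83578886 (minus) for Ccl9, chr6:117168285-117168534 (plus) for Cxcl12 and chr5:95956689-95956938 (plus) for Cxcl13.
Ccl6: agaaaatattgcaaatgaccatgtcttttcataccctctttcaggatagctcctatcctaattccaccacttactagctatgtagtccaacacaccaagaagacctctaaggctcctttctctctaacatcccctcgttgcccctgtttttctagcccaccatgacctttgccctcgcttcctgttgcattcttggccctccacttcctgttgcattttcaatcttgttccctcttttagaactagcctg
Ccl9: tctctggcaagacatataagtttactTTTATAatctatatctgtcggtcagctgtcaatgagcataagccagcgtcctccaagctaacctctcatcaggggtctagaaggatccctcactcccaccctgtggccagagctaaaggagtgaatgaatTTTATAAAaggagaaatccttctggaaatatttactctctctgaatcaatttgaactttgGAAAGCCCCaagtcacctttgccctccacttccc
Cxcl12: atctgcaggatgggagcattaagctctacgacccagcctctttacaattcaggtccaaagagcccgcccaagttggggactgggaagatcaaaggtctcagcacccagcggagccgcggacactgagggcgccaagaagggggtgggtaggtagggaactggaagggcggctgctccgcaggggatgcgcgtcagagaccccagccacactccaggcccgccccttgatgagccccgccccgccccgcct
Cxcl13: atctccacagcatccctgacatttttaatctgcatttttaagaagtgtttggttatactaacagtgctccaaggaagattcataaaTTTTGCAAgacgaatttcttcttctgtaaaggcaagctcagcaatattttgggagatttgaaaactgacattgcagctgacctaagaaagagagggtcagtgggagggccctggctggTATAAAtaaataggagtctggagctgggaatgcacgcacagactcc

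Windows were found for 33 of the 46 genes, 37 windows in all. Both strands were searched for 6 motifs. The letters were TTCNNNGAA for STAT factors, TTCNNTTTC for interferon response elements, GGGNNTTTC for NF-kB, TTGCNNAA for C/EBP, AGAGGAAG for PU.1 and TATAAA for a TATA box. In the 4 windows shown, the overlapping matches were a pair of TATA boxes on opposite strands in Ccl9, at 94 and 92 bases before the start. Ccl9 also held an NF-kB match 34 bases before the start and a further TATA match at 224. Cxcl13 held a C/EBP match at 164 bases and a TATA match at 46. Ccl6 and Cxcl12 held none of the 6. The Cxcl12 window held 14 CpG dinucleotides, against a median of 6 over all windows.

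Across the family, the NF-kB letters were in 8 of the 37 windows, or 21.6%, and in 3.72% of all 32851 windows. The 8 were those of Ccl20, Ccl9, Cxcl2, Cxcl9, Ccr3, Cxcr2, Cxcr3 and Cxcr4. The interferon element was in 6 windows, 16.2% against 7.13% of all, and among them were Cxcl9 and Cxcl10, both induced by interferon gamma. These shares depend on the letters chosen. Both motifs were first searched with 10 letters, with a further C at the end for NF-kB and a further T in front for the interferon element, and were shortened by 1 letter after those shares had been seen. The longer NF-kB form was in 4 windows (Ccl20, Ccl9, Cxcl2 and Ccr3), 10.8% against 1.41% of all, and the longer interferon form in 2 (Cxcl10 and Cxcl14), 5.41% against 2.98%. The TATA letters were in 10 windows, 27.0% against 12.4%. Shares for the other motifs were 10.8% against 7.02% for STAT, 8.11% against 9.56% for C/EBP and 5.41% against 3.67% for PU.1. Ccl9 and Ccl6 are adjacent protein-coding genes, between Ccl5 and Ccl3. The longest run that their windows share is gccctccacttcc, 13 bases long. It begins 55 bases before the start of Ccl6 and 14 before that of Ccl9. These matches are letters in a window and were not tested for function.

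Most of the family lay near background. A probe set was called near background when its mean over the 9 arrays, taken on the log2 scale, was under an intensity of about 36.2, the 30th percentile. By that rule 39 of the 63 probe sets were left out and 24 were tested, measuring 15 ligands and 4 receptors. The last members inside were Ccr6 at 39.9, Ccl27a at 42.4 and Ccl28 at 55.8. The first outside were Ccr3 at 35.3, Ccl8 at 34.8 and Cxcr2 at 34.3.

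Among the ligands with no probe set above the threshold were Cxcl2, Cxcl5 and Cxcl15, which attract neutrophils through Cxcr2. The monocyte attractants Ccl2, Ccl7 and Ccl12, and Ccl8, were also under it. So were Ccl1, Ccl17 and Ccl22, ligands of Ccr4 and Ccr8 on T cells, the inflammatory CC ligands Ccl3 and Ccl5, the eosinophil attractant Ccl11, the interferon-induced Cxcl10, and Ccl20, the ligand of Ccr6. Of the receptors, Ccr1, Ccr2, Ccr3, Ccr4, Ccr7, Ccr8, Ccr9, Ccr10, Cxcr2, Cxcr4, Cxcr5 and Cxcr6 had no probe set above it. The receptors tested were therefore Ccr1l1, Ccr6, Cxcr3 and Cx3cr1. A receptor carried by few cells of a tissue gives a low value in whole-liver RNA, so these values place a gene near the array's background and do not show that no cell expressed it. Single arrays of the probe sets left out reached 396 (Cxcl14 1418457_at in T-Co 13) and 131 (Ccl8 in T-TSU 2).

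**Figure D1:**
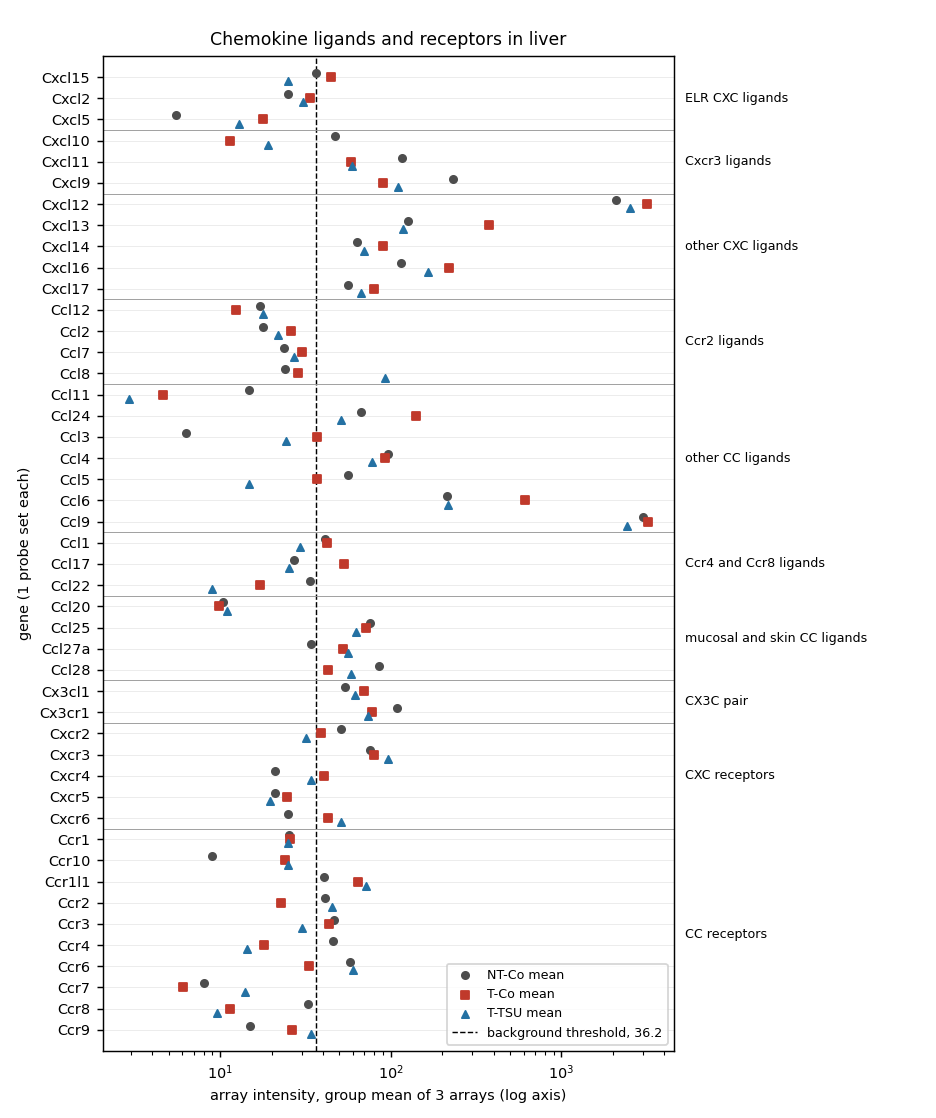
Mean array intensity (log axis) of 1 probe set for each of the 46 genes in NT-Co, T-Co and T-TSU (n = 3 each), ordered by role, with the background threshold of 36.2 as a dashed line. Cxcl12 and Ccl9 lie far to the right of the threshold, and the ligands of Ccr2 and of Cxcr2 lie around or left of it, except Ccl8 in T-TSU at 92.6.

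Probe sets of 2 members, Ccl6 and Cxcl12, rose in livers of vehicle-treated mice with a tumour. The Ccl6 probe set 1417266_at was 2.71-fold higher in T-Co than in NT-Co and the Cxcl12 probe set 1417574_at 1.53-fold higher, while its other probe set had a lower mean, all on the log2(intensity + 7.92) scale. Of 24 probe sets tested, 2 passed an adjusted p of 0.05 in limma's moderated test and both were higher, which is 8.33%, against 6.54% of all 15838 probe sets called and 4.16% called higher. The members' share was thus near the background, and what follows describes single genes. At an unadjusted p under 0.05 there were 6, 25.0% against 22.2% of all. The groups did not overlap for 7 members, 6 higher and 1 lower in T-Co, 29.2% against 26.9% of all (14.4% higher and 12.5% lower). The median log2 difference of the 24 was 0.25, against 0.007 over all probe sets, and 16 of the 24 were positive, against 8052 of 15838. The median was 0.03 without T-Co 13 and 0.05 without NT-Co 11.

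Ccl6, a mouse CC ligand of Ccr1 made by macrophages and other myeloid cells, was measured by 2 probe sets. With 1417266_at the intensity was 153, 281 and 208 in NT-Co 8, 10 and 11, T-Co 9, 10 and 13 gave 431, 487 and 916, and T-TSU 2, 12 and 14 gave 112, 279 and 261. All T-Co arrays lay above all others, with T-Co 13 the highest, and T-TSU overlapped with NT-Co. The means were 214 ± 64.01, 611 ± 265 and 217 ± 91.4 (SD, n = 3). The log2 difference between T-Co and NT-Co was 1.44 ± 0.36 (SE, limma adjusted p = 0.0356). The call was lost without any 1 of 4 arrays, with adjusted p-values of 0.135 without NT-Co 8, 0.108 without NT-Co 11, 0.0524 without T-Co 10 and 0.111 without T-Co 13, where the difference was 1.11. The second probe set, 1420249_s_at, had 95.2, 140 and 75.7 in NT-Co, while T-Co gave 234, 160 and 595 and T-TSU 106, 131 and 140. Again T-Co did not overlap with either group. Its difference was 1.42 ± 0.40 (adjusted p = 0.0520), and without T-Co 10 it was called, at an adjusted p of 0.0198.

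Cxcl12, the ligand of Cxcr4 that retains blood stem cells and lymphocytes in their niches, was bright in every array. With 1417574_at the values were 2212, 1969 and 2069 in NT-Co, while T-Co gave 3375, 2887 and 3321 and T-TSU 2341, 2800 and 2426. The 3 groups did not overlap, and T-TSU lay between the others. The means were 2083 ± 122, 3194 ± 268 and 2523 ± 244. The T-Co to NT-Co difference was 0.61 ± 0.12 (limma adjusted p = 0.0121), and 0.58 without T-Co 13 (adjusted p = 0.0313). It was lost without NT-Co 11, at an adjusted p of 0.0542. The second Cxcl12 probe set, 1448823_at, did not follow it. It read 2258, 2294 and 1710 in NT-Co, while T-Co gave 1685, 1773 and 1443 and T-TSU 1751, 1620 and 2103. Here T-Co had the lowest mean, 1634 ± 171 against 2087 ± 328, and the difference, -0.34 ± 0.16, missed the threshold (adjusted p = 0.219). The rise of Cxcl12 therefore rests on 1 of its 2 probe sets. Cxcr4, its receptor, was near background over the 9 arrays, with single arrays between 10.0 and 50.6. Its T-Co arrays (32.7, 40.3 and 49.1) lay above those of NT-Co (20.4, 26.7 and 15.8), given here after the values were seen. In a fit without the filter the difference was 0.76 ± 0.50 (limma adjusted p = 0.496).

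**Figure D2:**
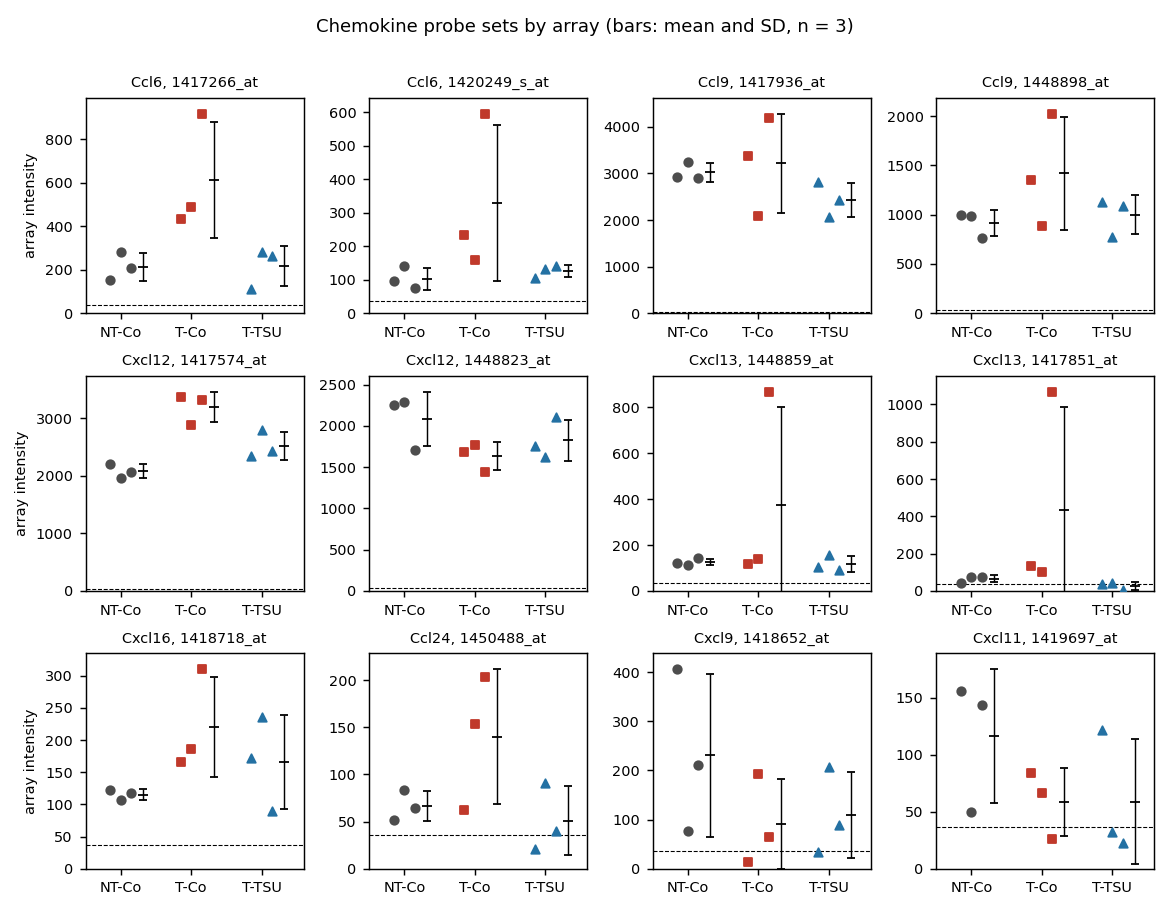
Array intensity of 12 probe sets of 8 ligands, each point 1 array, bars the mean and SD of 3 arrays (cut at 0), the dashed line the background threshold of 36.2. The Ccl6 and Cxcl13 panels show T-Co 13, the rightmost T-Co point, far above the other arrays, and the 2 Cxcl12 panels differ in direction.

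Ccl9, another mouse ligand of Ccr1, was the other bright member. Its probe set 1417936_at read 2924, 3250 and 2891 in NT-Co, while T-Co gave 3380, 2082 and 4186 and T-TSU 2807, 2068 and 2429. T-Co held both the highest value and one of the 2 lowest, so the spread within the group exceeded any shift, and the difference was 0.03 ± 0.21 (adjusted p = 0.952). The second probe set, 1448898_at, read 999, 987 and 763, then 1352, 880 and 2022, then 1133, 772 and 1091, a difference of 0.56 ± 0.26 (adjusted p = 0.233). It was called only when T-Co 10 was left out (0.86, adjusted p = 0.0491).

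Ccl24, an eosinophil attractant that binds Ccr3, read 51.6, 83.8 and 64.9 in NT-Co, while T-Co gave 62.4, 153 and 204 and T-TSU 20.9, 91.4 and 40.04. The groups overlapped through T-Co 9, and the difference was 0.86 ± 0.50 (adjusted p = 0.347). Ccl4, an inflammatory ligand made by macrophages and lymphocytes, read 127, 91.9 and 71.7, then 22.5, 140 and 117, then 36.9, 98.8 and 96.4. T-Co 9 was the lowest array and T-Co 10 the highest, and the difference was -0.31 ± 0.56 (adjusted p = 0.801).

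Cxcl13, which draws B cells through Cxcr5, was set apart by a single array. The probe set 1448859_at read 124, 113 and 143 in NT-Co, while T-Co gave 120, 140 and 868 and T-TSU 106, 158 and 91.8. Without T-Co 13 the T-Co to NT-Co difference was 0.04, against 0.93 ± 0.56 with it (adjusted p = 0.370). The second probe set, 1417851_at, read 43.6, 73.8 and 77.2, then 132, 102 and 1069, then 37.0, 43.3 and 3.54. In this one all T-Co arrays were above all NT-Co arrays and all T-TSU arrays below them, the last around the background threshold. The difference, 1.85 ± 0.78, missed the threshold (adjusted p = 0.188), and it was 0.81 without T-Co 13. Cxcr5 was near background, between 2.23 and 51.4 on single arrays.

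Cxcl16, a membrane-bound ligand of Cxcr6, read 122, 106 and 118 in NT-Co, while T-Co gave 166, 187 and 310 and T-TSU 172, 236 and 89.0 with 1418718_at. T-Co lay above NT-Co on every array, the difference was 0.84 ± 0.33, and it did not pass (adjusted p = 0.160). The probe set 1449195_s_at gave 0.09 ± 0.31 (adjusted p = 0.906), with overlapping groups. Cxcl14 and Cxcl17, the remaining CXC ligands tested, had differences of 0.05 ± 0.56 and 0.61 ± 0.61, with adjusted p-values of 0.976 and 0.620. T-Co 13 was the highest of the 9 arrays for Cxcl14 as well, at 187 with 1418456_a_at against 19.9 to 84.9 elsewhere.

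The interferon-induced ligands of Cxcr3, which guide activated T and NK cells, had lower means in T-Co and varied widely. Cxcl9 read 405, 76.7 and 210 in NT-Co, while T-Co gave 14.4, 192 and 64.3 and T-TSU 33.8, 206 and 88.5. Each group held a value above 190, the groups overlapped, and the T-Co to NT-Co difference was -1.52 ± 0.79 (adjusted p = 0.287). Cxcl11 with 1419697_at read 156, 49.3 and 144, then 83.6, 66.5 and 25.8, then 122, 32.4 and 22.5, a difference of -0.88 ± 0.60 (adjusted p = 0.444). RefSeq lists Cxcl11 as a transcribed pseudogene in GRCm38.p6, which is a C57BL/6J assembly. Cxcl10 was near background and is named after its values were seen, at 53.7, 34.0 and 53.1 in NT-Co, while T-Co gave 11.0, 10.2 and 12.9 and T-TSU 15.98, 15.9 and 25.3. Its NT-Co arrays were the highest 3, and in a fit without the filter the difference, -1.49 ± 0.41, missed the threshold (adjusted p = 0.0656). Cxcr3 itself was tested and showed no such order, with 70.6, 91.2 and 64.6, then 95.6, 53.6 and 89.1, then 105, 87.2 and 96.0, and a difference of 0.04 ± 0.30 (adjusted p = 0.956).

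Ligands of mucosa and skin were dim. Ccl28, which binds Ccr10, read 40.1, 94.2 and 123 in NT-Co, while T-Co gave 48.7, 63.4 and 16.2 and T-TSU 52.6, 78.3 and 45.1, with overlapping groups and a difference of -0.91 ± 0.51 (adjusted p = 0.327). Ccl25, the ligand of Ccr9, and Ccl27a, another ligand of Ccr10, gave -0.10 ± 0.50 and 0.49 ± 0.57, with adjusted p-values of 0.942 and 0.675. The Ccl27a probe set is of a class whose probes can bind related transcripts.

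Cx3cl1, fractalkine, is anchored to endothelium and binds Cx3cr1 on monocytes and macrophages. Its difference was 0.41 ± 0.45 (adjusted p = 0.655). Cx3cr1 with 1450020_at read 99.3, 131 and 95.7 in NT-Co, while T-Co gave 88.7, 78.7 and 65.9 and T-TSU 104, 81.0 and 35.2. Of the 24 tested probe sets it was the 1 whose T-Co arrays all lay below NT-Co, and the difference, -0.44 ± 0.36, missed the threshold (adjusted p = 0.534). Its other probe set, near background, read 38.3, 52.0 and 45.2 in NT-Co against 9.59, 8.04 and 9.51 in T-Co, a difference of -1.64 ± 0.46 in the fit without the filter (adjusted p = 0.0744).

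Of the CC receptors, Ccr1l1, a gene related to Ccr1, read 33.0, 43.8 and 44.5 in NT-Co, while T-Co gave 49.4, 65.7 and 77.6 and T-TSU 60.1, 106 and 47.9. Both tumour-bearing groups lay above NT-Co on every array, and the T-Co difference was 0.57 ± 0.39 (adjusted p = 0.441). Ccr6 read 105, 21.0 and 47.2, then 2.05, 29.2 and 68.2, then 39.8, 95.1 and 44.3, with a difference of -0.89 ± 0.74 (adjusted p = 0.536). Its spread within each group was as wide as the distance between groups. Ccr1, the receptor of Ccl6 and Ccl9, is named after its values were seen. Its probe set 1419610_at read 29.96, 29.4 and 21.9 in NT-Co, while T-Co gave 2.46, 1.87 and 0.720 and T-TSU 6.20, 25.8 and 13.0. All of these lie under the background threshold, and those of T-Co under the 7.92 added to each intensity. A fit without the filter called it lower in T-Co, at -1.86 ± 0.43 (limma adjusted p = 0.0309). It is picked from the 39 probe sets left out, and the share of all probe sets called in that fit is not given here. The other Ccr1 probe set gave -0.18 in that fit. Cxcr6 1422812_at gave -1.44 ± 0.40 (adjusted p = 0.0709) and its other probe set 0.62.

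**Figure D3:**
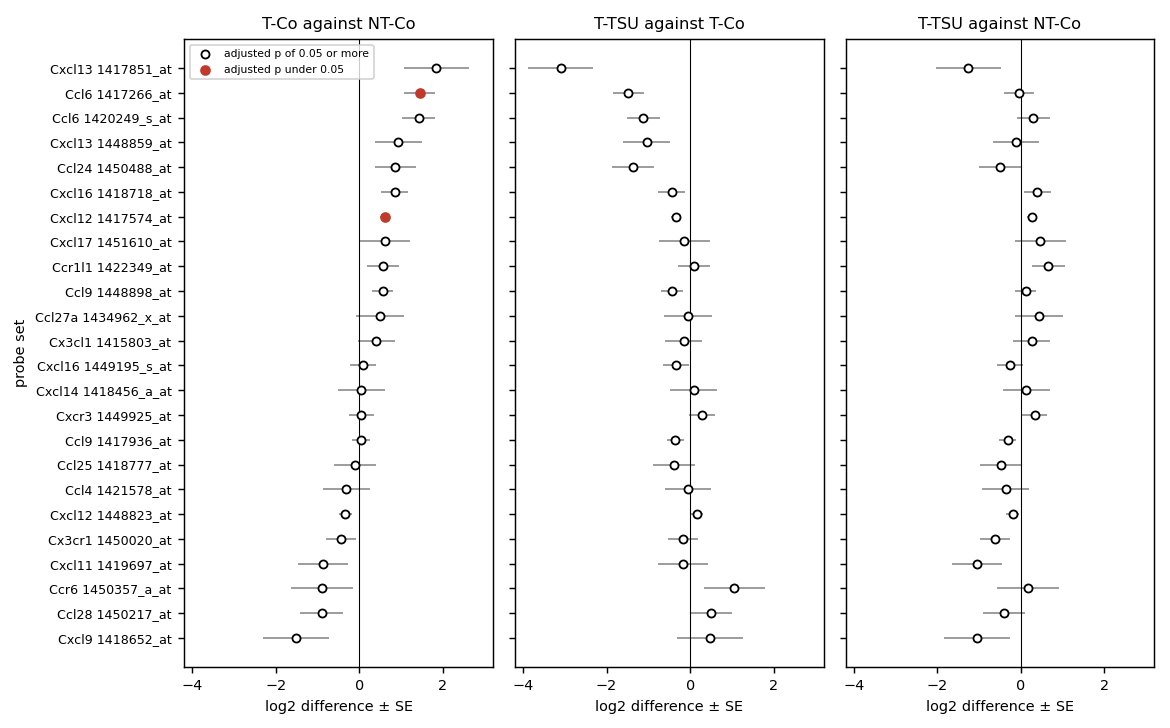
Log2 difference ± SE from limma for the 24 tested probe sets in each comparison, ordered by T-Co against NT-Co, with filled points at an adjusted p under 0.05. The 2 filled points are 1 probe set each of Ccl6 and Cxcl12 in the left panel, and no point is filled for T-TSU against T-Co or T-TSU against NT-Co.

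In tumour-bearing mice no chemokine probe set passed the test of TSU68 against vehicle. The count was 0 of 24 by limma, where 0.0505% of all probe sets were called, and 5 of the 24 had an unadjusted p under 0.05, 20.8% against 10.5% of all. T-TSU was lower than T-Co without overlap for 4 members and higher for 0, 16.7% against 14.1% of all probe sets (7.39% lower and 6.75% higher). The 4 were both Ccl6 probe sets, Cxcl12 1417574_at and Cxcl13 1417851_at. The same 4 had T-Co above NT-Co without overlap, a pattern held by 3.39% of all probe sets. T-Co arrays enter both differences, so a high T-Co array moves them in opposite directions. The median difference of the 24 was -0.18, against -0.009 over all, and 7 of 24 were positive.

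For Ccl6 1417266_at, whose values are given above, the T-TSU to T-Co difference was -1.48 ± 0.36 (limma adjusted p = 0.189), and -1.15 without T-Co 13. The second probe set gave -1.13 ± 0.40 (adjusted p = 0.342), and -0.60 without T-Co 13. Cxcl13 1417851_at gave -3.10 ± 0.78 (adjusted p = 0.197), the difference of largest size among the members in this comparison, and -2.06 without T-Co 13. The other Cxcl13 probe set gave -1.05 ± 0.56 (adjusted p = 0.556), and -0.16 without T-Co 13. Cxcl12 1417574_at gave -0.34 ± 0.12 (adjusted p = 0.355), while 1448823_at gave 0.16 ± 0.16 (adjusted p = 0.782). Ccl24 gave -1.37 ± 0.50 (adjusted p = 0.364), with T-TSU 12 inside the range of T-Co. Values of the other tested ligands lay between -0.44 and 0.50, and none of them had an adjusted p under 0.59. Among receptors, Ccr6 gave 1.06 ± 0.74 (adjusted p = 0.665), and Ccr1l1, Cxcr3 and Cx3cr1 gave 0.09, 0.28 and -0.18.

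Against mice without a tumour, the TSU68-treated livers had no called member either. The count was 0 of 24 by limma, where 3.85% of all were called, and 1 member, Cxcl12 1417574_at, had an unadjusted p under 0.05, 4.17% against 16.9% of all. Its difference was 0.27 ± 0.12 (adjusted p = 0.285). The groups did not overlap for 4 members, 16.7% against 24.2% of all (12.7% higher and 11.6% lower). Ccr1l1 (0.66 ± 0.39) and Cxcl12 1417574_at were higher in T-TSU, and Ccl9 1417936_at (-0.32 ± 0.21) and Cxcl13 1417851_at (-1.26 ± 0.78) lower, with adjusted p-values of 0.453, 0.285, 0.514 and 0.475. Ccl6 1417266_at gave -0.04 ± 0.36 (adjusted p = 0.976). The median over the 24 was -0.08, against -0.001 over all, and 11 were positive. Over the 3 groups together, limma's F test called 2 of 24, Cxcl12 1417574_at (adjusted p = 0.0289) and Ccl6 1417266_at (0.0413), where 5.7% of all probe sets were called.

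T-Co 13 recurred among the highest values. It was the highest of the 9 arrays for 10 of the 24 tested probe sets, 41.7%, all of ligands, and for 16.3% of all probe sets tested. Both probe sets of Ccl6, Ccl9, Cxcl13 and Cxcl16 are among the 10, so these are not separate genes. It also stood apart on the second principal component of the 15838 probe sets tested (48.1, with all others from -29.9 to 17.5). Array medians were between 107 and 119 and no 2 arrays held identical values. The 3′ to 5′ signal ratio, a measure of RNA integrity, was 2.27 to 3.14 in NT-Co for beta-actin, against 1.88 to 2.10 for T-Co and 1.79 to 2.16 for T-TSU, so that NT-Co lay above both other groups. For Gapdh it was 0.736 to 0.798, 0.734 to 0.809 and 0.707 to 0.851, and the groups overlapped. The part of RNA integrity in the differences was not tested.

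**Figure D4:**
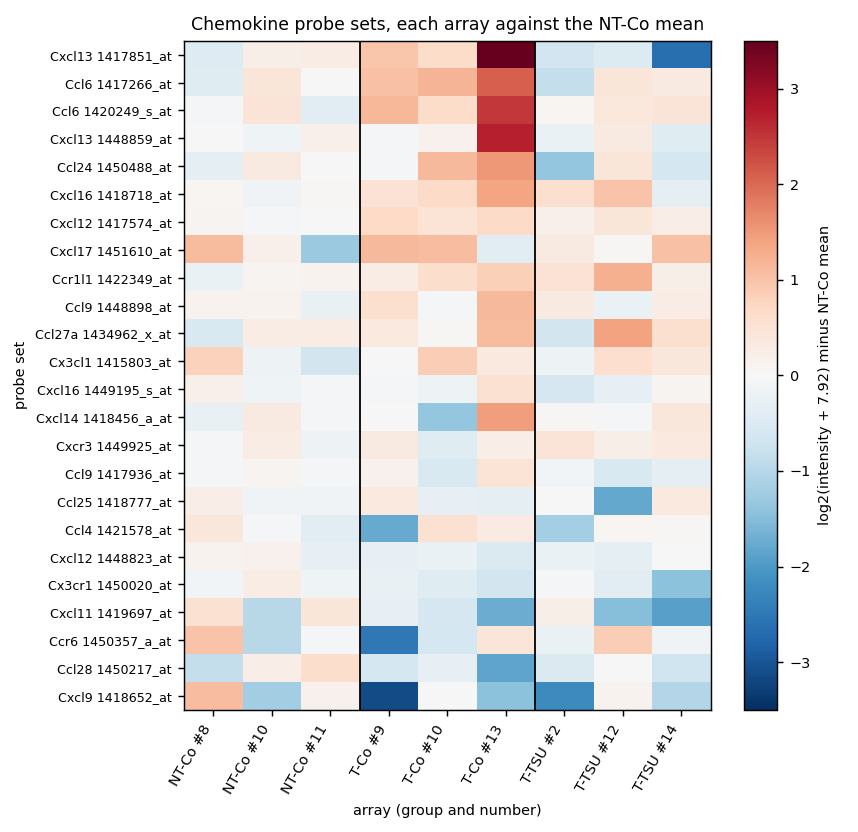
Log2(intensity + 7.92) of the 24 tested probe sets on each array minus the mean of the 3 NT-Co arrays. T-Co 13 shows the darkest red cells, in Cxcl13 and Ccl6, while Cxcl9, Cxcl11 and Ccr6 vary in both directions within groups.

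For 5 ligands a pair of probe sets was tested, and the distance within each pair is given by group. Such distances were not computed over all genes, so whether those below are particular to these ligands was not tested. The distance between the 2 Cxcl12 probe sets (1417574_at minus 1448823_at, log2) was 0.01 ± 0.25 in NT-Co, against 0.97 ± 0.25 for T-Co and 0.47 ± 0.29 for T-TSU (SD, n = 3). T-Co and NT-Co did not overlap and differed by 0.96, at a two-sided exact permutation p of 0.1, the smallest that 20 splits allow (0.125 adjusted over the 5 pairs), so this design cannot reach 0.05. For Ccl9 (1417936_at minus 1448898_at) the distance was 1.72 ± 0.18 in NT-Co, against 1.20 ± 0.14 for T-Co and 1.29 ± 0.13 for T-TSU, and for Cxcl16 (1418718_at minus 1449195_s_at) 0.35 ± 0.09, 1.10 ± 0.15 and 1.01 ± 0.96. The Ccl9 distance was thus smaller in T-Co and the Cxcl16 distance larger, each at an exact permutation p of 0.1 between T-Co and NT-Co. For Ccl6 the distance was 0.99 ± 0.36 without and 1.01 ± 0.49 with a tumour under vehicle (exact permutation p = 1.0), so its probe sets gave nearly the same difference between these groups. The Cxcl13 distance (1448859_at minus 1417851_at) was 0.92 ± 0.40, 0.00 ± 0.38 and 2.05 ± 0.94, smaller in T-Co than in either other group without overlap. The exact permutation p was 0.1 for each, which adjusted over the 5 pairs was 0.125 against NT-Co and 0.5 against T-TSU. The dimmer Cxcl13 probe set was around background in T-TSU.

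**Figure D5:**
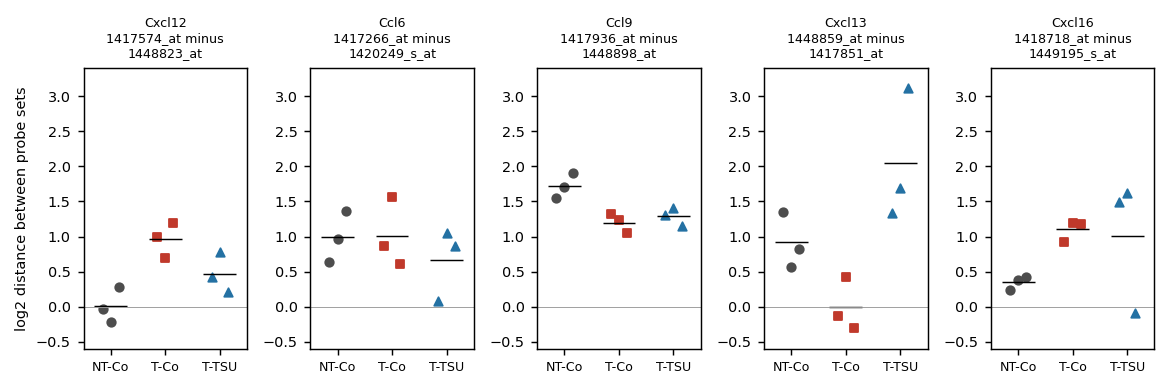
Distance on the log2 scale between the 2 tested probe sets of 5 ligands, each point 1 array and each line the mean of 3. The Cxcl12, Ccl9, Cxcl13 and Cxcl16 distances of T-Co lie apart from those of NT-Co, and the Ccl6 distances overlap.

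Beyond the named ligands and receptors, 12 other genes of the chemokine system were followed, and 0 of the 6 tested were called in any of the 3 comparisons by limma. They included Pf4, a platelet chemokine (0.40 ± 0.27 for T-Co against NT-Co, adjusted p = 0.429), and the scavenging receptors Gpr182 (0.50 ± 0.25, adjusted p = 0.271) and Ackr3, a second receptor of Cxcl12 (-0.86 ± 0.54, adjusted p = 0.396). Of 24 genes of receptor signalling 17 were tested and 0 were called. The nearest was Arrb2, a beta-arrestin that desensitises the receptors, at 0.88 ± 0.25 (adjusted p = 0.0571). Of 23 genes of the cytokine, receptor and transcription factor pathways that induce chemokine genes, feedback regulators among them, 18 were tested. In T-Co against NT-Co 4 rose, where 4.16% of all probe sets were called higher. They were Il6ra, the interleukin 6 receptor (1.73 ± 0.30, adjusted p = 0.00598), Nfkbiz (1.42 ± 0.25, adjusted p = 0.00660) and Nfkbia (0.90 ± 0.17, adjusted p = 0.00768), both regulators of NF-kB, and Il1r1, the interleukin 1 receptor (1.35 ± 0.32, adjusted p = 0.0286). Il6ra and Nfkbia were also called higher in T-TSU than in NT-Co, at 1.87 and 0.78 (adjusted p = 0.00498 and 0.0214). Nfkbiz was lower in T-TSU than in T-Co without overlap, and that difference, -1.03 ± 0.25, did not pass (adjusted p = 0.189). Tnf, Il6 and Ifng were near background.

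Markers of the cells that make or follow chemokines were compared between T-Co and NT-Co, where 6.54% of all probe sets passed the test. All 11 measured markers of Kupffer cells and macrophages were tested, 10 had a positive difference, and 1 passed, Cd163, a macrophage scavenger receptor (1.47 ± 0.36, adjusted p = 0.0320). Their summed intensity was 8497 to 11677 in NT-Co, against 11203 to 17099 for T-Co and 5075 to 11080 for T-TSU. T-Co overlapped with NT-Co, T-TSU lay below T-Co without overlap, and T-Co 13 was the highest, as it was for Ccl6. For T-TSU against T-Co, 0 of the 11 had a positive difference, the median was -0.87 against -0.009 over all probe sets, and 0 were called by limma. The sum of the 9 measured neutrophil markers was 671 to 1055, 986 to 2368 and 590 to 955, again with T-Co 13 the highest. T-Co overlapped with NT-Co and not with T-TSU, and 0 of the 6 tested were called by limma. S100a8 and S100a9 weighed most in the T-Co 13 sum, at 864 and 823 of 2368. The sum without these genes was not computed, so their part in the separation from T-TSU was not tested. Of the 6 tested, 4 had a positive difference between T-Co and NT-Co, while Elane, among the others, gave -0.30 ± 0.53 (adjusted p = 0.797). Camp, Ltf and Mmp8 were near background. The sum of 10 endothelial markers was 2541 to 3378, 3085 to 4838 and 2113 to 3013, also overlapping between T-Co and NT-Co and not between T-Co and T-TSU. Of the 10, 1 was called in T-Co against NT-Co, Pecam1, an adhesion molecule of endothelium (1.89 ± 0.50, adjusted p = 0.0425). T and NK cell markers summed to 288 to 503, 332 to 394 and 282 to 574, and Cd3d, Cd3g, Cd4, Cd8a, Ncr1 and Nkg7 were near background. The 6 measured B cell markers summed to 512 to 1256, 509 to 587 and 406 to 587, with overlap. Of these, Cd79a, Pax5 and Blk were near background, and 0 of the 3 tested were called by limma. Cd79b was higher in T-Co than in NT-Co without overlap (1.38 ± 0.45, adjusted p = 0.0919), while Ighm and Ms4a1 gave -0.77 and -0.35. The sum of the 9 measured stellate cell markers was lower in T-Co without overlap, at 6992 to 7685 in NT-Co, against 5569 to 6318 for T-Co and 6181 to 7376 for T-TSU. Of 8 tested 2 had a positive difference, and 1 fell, Col3a1, a fibrillar collagen (-1.03 ± 0.20, adjusted p = 0.0101). The sum of the 8 hepatocyte markers, all above background, was higher in T-Co without overlap, at 207864 to 223890, 247559 to 254996 and 209123 to 226301. Of these 2 rose, Cps1 of the urea cycle (0.46 ± 0.09, adjusted p = 0.00988) and Tat, which breaks down tyrosine (0.86 ± 0.20, adjusted p = 0.0238). The part of these cells in the Ccl6, Cxcl12 and Cxcl13 values was not tested.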

How the data were processed

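The deposited values are linear array intensities of liver RNA, 1 per probe set and sample, per the file headers, and every array had a mean of 500.3 after removing 2% of values at each end. Which software summarised and scaled them is not stated here. Per the labels' protocols, labelled cRNA was made from 5 µg of total RNA. Groups were taken from the sample titles, which do not say that samples are separate animals, so a p-value reflects spread between samples that may be technical.

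Intensities were analysed as log2(intensity + 7.92), the 10th percentile of all values, which understates changes of dim genes. Probe sets with a mean on that scale under the 30th percentile were left out (6788), as were 64 control probe sets, and 15838 were tested. limma 3.58.1 (R 4.3.3) fitted 3 group means to the 9 arrays together, with an intensity trend and 6 residual degrees of freedom. Its two-sided p-values were adjusted by Benjamini-Hochberg over every probe set tested, with a threshold of 0.05. The pipeline was tested on simulated data. Of the 22626 probe sets, 20380 had 1 gene, 691 several and 1555 none. Symbols are those of the platform annotation, and all 63 members were found in the RefSeq gene table.

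Values on every array are given for members called, for the 12 genes with the smallest F test p and for the 8 brightest, by their brightest tested probe set, with others where signs differ or the pair is discussed. Genes outside the members come from pathway and cell marker lists, those called and up to 4 a list with the smallest F test p. The members and lists were chosen with earlier results of these data known. Alternatives covered the pseudocount, the filter, normalization, the moderation, the samples fitted and leaving out each array. No detection calls were used, and the number of arrays limits the precision.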

Additional observations from a re-analysis of the deposited data

How the results depend on the processing

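No paired analysis was possible because the groups share only replicate number 10, between NT-Co and T-Co. The count of members called in T-Co against NT-Co, 2 in the report, was 0 without the intensity trend (adjusted p of 0.0591 for Cxcl12 and 0.0957 for Ccl6), stayed at 2 or 3 under the other alternatives and ranged from 0 to 3 with 1 array left out. By the F test it was 1 with no filter, 1 with arrays centred on their median, 1 with robust moderation and 0 without the trend. Leaving out arrays in turn gave 0 to 3. The cause was not tested. For T-TSU against T-Co and against NT-Co the count was 0 under every alternative run. The members' median difference moved to 0.73 (T-Co against NT-Co) and -0.44 (T-TSU against T-Co) when the filter was at the 50th percentile, which kept 8 members. With 1 array left out the medians ranged from 0.034 to 0.38, from -0.35 to -0.15 and, for T-TSU against NT-Co, from -0.15 to 0.03. Over all 72 differences of tested probe sets, 5 changed sign under an alternative other than leaving out an array, each of a size of 0.08 or less, and 27 with an array left out. A filter on the linear mean, chosen after seeing the data, tested 26 members and called the same 2 probe sets' genes, Ccl6 and Cxcl12. Low signal over background limits most receptors.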

Other observations

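A further 4 chemokine probe sets match several genes and were not counted among the members. The probe set 1449277_at is annotated to 10 genes, among them Ccl19, a ligand of Ccr7 in lymphoid tissue, and its pseudogene. Its signal cannot be assigned to 1 of them. It read 30.5, 17.6 and 48.6 in NT-Co, while T-Co gave 105, 187 and 125 and T-TSU 19.6, 167 and 22.1. All T-Co arrays lay above NT-Co, and the log2 difference of 1.91 ± 0.64 did not pass (limma adjusted p = 0.0968). T-TSU 12 lay in the T-Co range and the other 2 TSU68-treated arrays in that of NT-Co. The probe set annotated to 9 genes with the Ccl21 genes, also ligands of Ccr7, among them was near background in every array. So was 1 of the 2 probe sets shared by Ccl27a, Ccl27b and further genes, outside T-Co 10.

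Ccl8, which was left out as near background and is named here after its values were seen, read 53.7, 12.6 and 5.36 in NT-Co, while T-Co gave 10.7, 17.1 and 58.0 and T-TSU 131, 80.0 and 67.2. The TSU68-treated arrays were the highest 3. In the fit without the filter the differences were 1.63 ± 0.63 against T-Co and 1.92 ± 0.63 against NT-Co, and neither passed (limma adjusted p = 0.468 and 0.173). The second Cxcl14 probe set read 396 in T-Co 13 and between 4.27 and 29.5 on the other 8 arrays.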
